A study of Mus musculus with 24 samples.

Results

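Mouse liver cells bound by beads against F4/80, the product of the macrophage gene Adgre1, were profiled 24 h after 70% liver resection, and 3 arrays from mice splenectomised 7 days before the resection (LR+SE) were compared with 3 arrays from mice with the spleen in place (LR). The submitters' titles call these groups PH+SE 24h and PH 24h, and the 6 arrays were taken by those titles out of 24 in the series. The other 18 arrays came from intact liver, from splenectomy alone (SE), and from LR and LR+SE at 3 and 7 days, with 3 arrays a group. All animals were C57BL/6 mice, described in the methods as male, and no genetic change was part of any group. Surgery was done under isoflurane, and meloxicam, an analgesic that inhibits cyclooxygenase, was given from before surgery into the days after it, so both groups at 24 h carried it. LR+SE mice had also gone through the earlier splenectomy operation, and no sham splenectomy is described for LR. Absence of the spleen and effects of that earlier operation therefore cannot be told apart. The titles call the control group intact, whereas the methods describe sham-operated control animals, and which holds for these arrays is not settled. Each preparation pooled the cells of several mice, and whether the 3 arrays of a group came from separate pools is not settled, so that the spread between arrays may understate that between mice.

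Liver macrophages comprise Kupffer cells, which live in the sinusoids and maintain themselves, and cells derived from blood monocytes, which enter after injury. They take up dead cells and debris and release cytokines and growth factors that act on hepatocytes, endothelial cells and each other. In the mouse the spleen stores monocytes that can be mobilised to injured tissue, filters old red cells, and is a site of blood formation, including granulocyte and red cell precursors. Its venous blood drains through the portal vein straight into the liver. The comparison addresses what the liver macrophage fraction expresses a day after resection when the spleen has been absent for a week before it.

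Values are log2 signal per transcript cluster (in most cases 1 gene) as deposited, where 1 unit is a doubling, and they ran from 1.92 to 19.93. Background was set at 3.98, the level below which 95% of the values of odorant receptor genes fell, and each of the 6 arrays had 50.8% to 53.2% of the 22206 tested clusters over it. Adgre1 stood at 15.10, 14.88 and 13.91 in LR+SE and at 14.18, 14.67 and 15.86 in LR, so the gene of the selecting antibody's target was high in both groups and overlapped between them. Clec4f, a lectin of mouse Kupffer cells, lay between 18.11 and 19.06 in LR+SE and between 15.94 and 18.36 in LR. The Y-linked genes were above background on the 6 arrays, with means of 7.82 to 8.16 in LR+SE and 6.75 to 7.75 in LR, without overlap. None of the 3 genes measured passed in the main fit below, and 1 was called higher with only the 6 arrays in the fit. What this difference between the 24 h groups reflects was not tested. On 5 other arrays of the series the Y-linked genes were below background, at 2.60 to 3.08, although the mice were described as male. These were the 3 intact arrays, replicate 1 of LR+SE at 3 days and replicate 2 of LR at 7 days. Comparisons that use those arrays are given with this limit below. Correlations between arrays over the 2000 most variable clusters were 0.950 to 0.974 within LR+SE, 0.952 to 0.967 within LR and 0.831 to 0.912 between the groups.

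A day after resection, prior splenectomy went with a different profile of the F4/80+ fraction. Genes of the granules of developing neutrophils, histone genes, further proliferation genes and several macrophage genes were higher in LR+SE. Several genes of the acute inflammatory response and of leukocyte adhesion to endothelium were lower. Ptges and Acod1, enzymes of prostaglandin and itaconate synthesis, were lower too. Each of the 4 calls of acute phase genes depended on single arrays, and the cytokines Il1b, Tnf and Il6 did not pass. Of the 22206 clusters, 723 (3.26%) differed at a Benjamini-Hochberg adjusted p under 0.05 in limma, 452 (2.04%) higher and 271 (1.22%) lower in LR+SE. For 661 of them the difference was at least 1 log2 unit, with 423 higher and 238 lower. Among all clusters, 10.2% had all 3 arrays of LR+SE above all 3 of LR and 10.5% had them all below. Counts of list members given below are to be read beside these shares of all clusters. Of the 723 called, 714 did not overlap between the groups. The median difference over all clusters was -0.03. Without replicate 2 of LR+SE 349 clusters were called, and without replicate 2 of LR 372, while leaving out each other array gave 496 to 691. Exactly 1 gene symbol was available for 627 of the 723. With only the 6 arrays in the fit 675 clusters were called, 464 of them shared, and among the genes described below Pglyrp1, Car1, Lrp1, Cd93, Csf3, Igf1, Pdgfb, Hgf, Bak1, Cd34, Dcn, Irf8, Kit, Tnip1 and Lipa lost their calls, with adjusted p from 0.0506 to 0.247.

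**Figure D1:**
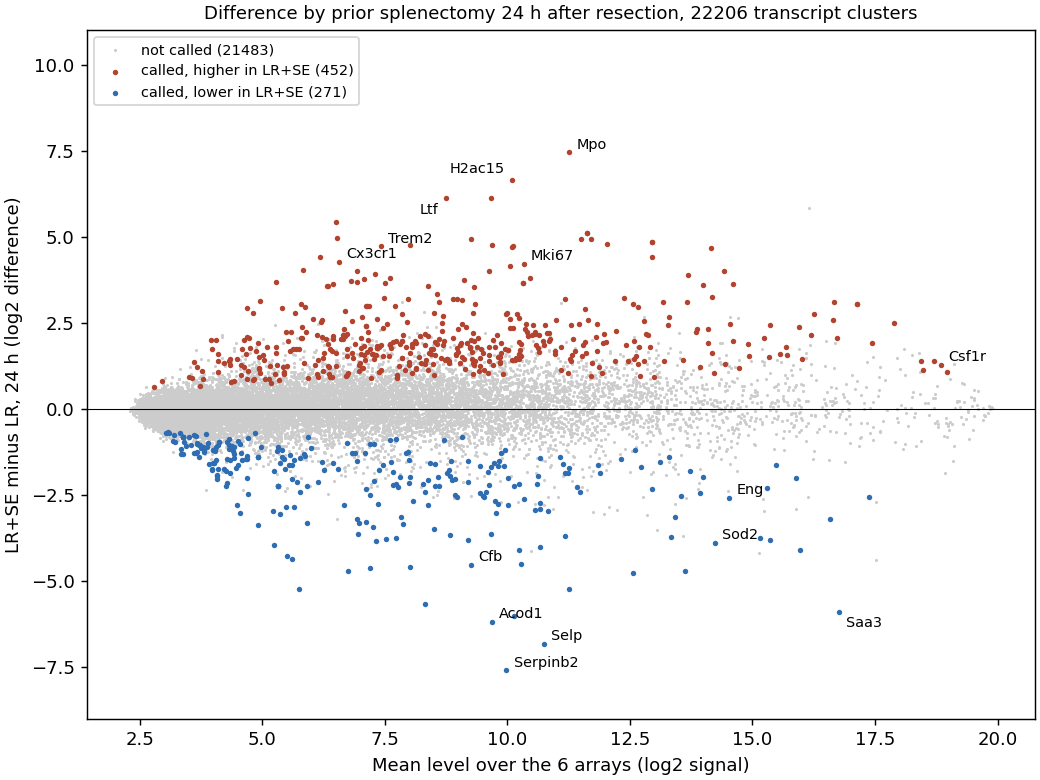
Difference between LR+SE and LR at 24 h (log2, y axis) against the mean level over the 6 arrays (log2 signal, x axis) for 22206 transcript clusters, with the 452 called higher in red, the 271 called lower in blue and the others in grey. Mpo, at 7.45, and Serpinb2, at -7.60, lie at the ends of the range.

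Among named genes without overlap the largest rise was that of Mpo, myeloperoxidase, the enzyme that makes hypochlorous acid in neutrophils. Mpo stood at 14.84, 15.01 and 15.10 in LR+SE and at 8.75, 6.60 and 7.26 in LR, a difference of 7.45 ± 0.98 (SE of the difference, 3 arrays a group), or 175-fold (adjusted p = 0.000128). Its level in LR+SE was close to alike on all 3 arrays, and the groups did not overlap. Elane, neutrophil elastase, was at 11.86, 12.51 and 13.84 against 7.95, 5.39 and 6.47 (6.13 ± 0.90, adjusted p = 0.000328). Ctsg, the serine protease cathepsin G, was at 9.30, 8.30 and 10.04 against 4.14, 3.69 and 3.55 (5.42 ± 0.56, adjusted p = 1.96e-05). These proteases are made at the promyelocyte stage and packed into the primary (azurophil) granules, and their transcripts fall as neutrophils mature.

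The same pattern was seen for Ms4a3, a membrane protein of granulocyte and monocyte progenitors, at 9.25, 8.38 and 9.41 against 3.73, 3.87 and 4.58 (4.95 ± 0.50, adjusted p = 1.96e-05), and for Prtn3, proteinase 3, at 9.43, 10.29 and 11.49 against 6.65, 5.18 and 5.09 (4.76 ± 0.54, adjusted p = 3.94e-05). In LR, Ctsg and Ms4a3 lay near the background level. Of 10 primary granule and progenitor genes measured, 6 were called higher and none lower, against 2.04% of all clusters called higher. The list median was 3.02. The other called gene was Fcnb, a ficolin, whose LR arrays all lay below background. In such a case the difference is given as a bound, the mean of the brighter group against the background level, and Fcnb was at least 2.01-fold higher. Prss57, Cebpe and Gfi1, at 0.49, 0.28 and 0.23, did not pass, and neither did Hdc, the histamine-forming enzyme, at -1.18. The count of 6 was the same with each of the 6 arrays left out in turn. Mean levels of the 10 genes were 8.16 to 8.68 in LR+SE and 5.16 to 5.74 in LR.

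Genes of later neutrophil stages differed among themselves. Ltf, lactoferrin, a secondary granule protein that binds iron, was at 11.96, 12.18 and 11.30 against 5.92, 5.79 and 5.31 (6.14 ± 0.78, adjusted p = 0.000109). Camp, the antimicrobial cathelicidin, was at 8.10, 6.87 and 8.57 against 4.22, 3.61 and 3.64 (4.03 ± 0.56, adjusted p = 0.000186), and Cd177, a neutrophil surface protein, was higher by 3.68 ± 0.45 (adjusted p = 9.15e-05). With Pglyrp1, a peptidoglycan-binding granule protein, 4 of 21 secondary granule and mature neutrophil genes were called higher and none lower. Pglyrp1 (1.62, adjusted p = 0.0382) lost its call without replicate 2 or 3 of LR+SE or replicate 2 or 3 of LR, the adjusted p reaching 0.179. Ngp, neutrophilic granule protein, lay at 19.10, 19.08 and 19.07 against 14.50, 13.12 and 12.11, without overlap, but its difference of 5.84 did not pass (adjusted p = 0.111). Several other genes of this list did not pass. Lcn2, lipocalin, was at 18.55 to 19.85 against 18.54 to 19.86, near the top of the scale, where differences are compressed. Cxcr2 differed by 0.00, Csf3r by -0.16 and Mmp8 by -0.36. S100a8, a calcium-binding protein abundant in neutrophils and monocytes, was at 16.95, 16.19 and 17.58 against 15.97, 16.13 and 13.72 (1.64, adjusted p = 0.731), and its partner S100a9 differed by 2.66 (adjusted p = 0.40), neither with overlap between the groups. The list median was 0.00. In bulk samples more cells of a type and more RNA per cell cannot be told apart, here and in the lists that follow.

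To show the regulatory sequence of these genes, the 250 bases before the RefSeq start site (GRCm38.p6) are printed for Mpo and Elane, the primary granule genes with the highest differences, in lower case with each GAGGAA string, the core bound by PU.1, or its reverse complement in capitals. Mpo is at chr11:87793534-87793783 and Elane at chr10:79886062-79886311, both on the plus strand.
Mpo: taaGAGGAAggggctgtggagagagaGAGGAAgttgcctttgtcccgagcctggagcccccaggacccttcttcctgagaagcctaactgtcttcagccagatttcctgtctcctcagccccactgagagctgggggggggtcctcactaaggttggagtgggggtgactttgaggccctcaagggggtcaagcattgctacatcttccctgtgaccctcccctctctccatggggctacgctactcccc
Elane: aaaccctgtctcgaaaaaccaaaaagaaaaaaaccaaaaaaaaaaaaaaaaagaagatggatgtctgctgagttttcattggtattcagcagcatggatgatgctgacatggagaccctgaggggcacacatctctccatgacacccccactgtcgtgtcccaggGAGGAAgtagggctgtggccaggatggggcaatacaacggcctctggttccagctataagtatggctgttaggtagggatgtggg
GAGGAA on either strand was in 4 of the 6 windows of the called primary granule genes (66.7%) and in 23.1% of 27025 gene windows of this length. TTGCNNAA, a string bound by C/EBP factors, was in 1 of 6 and in 9.55% of all. These are matches of letters and not sites shown to be bound.

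**Figure D2:**
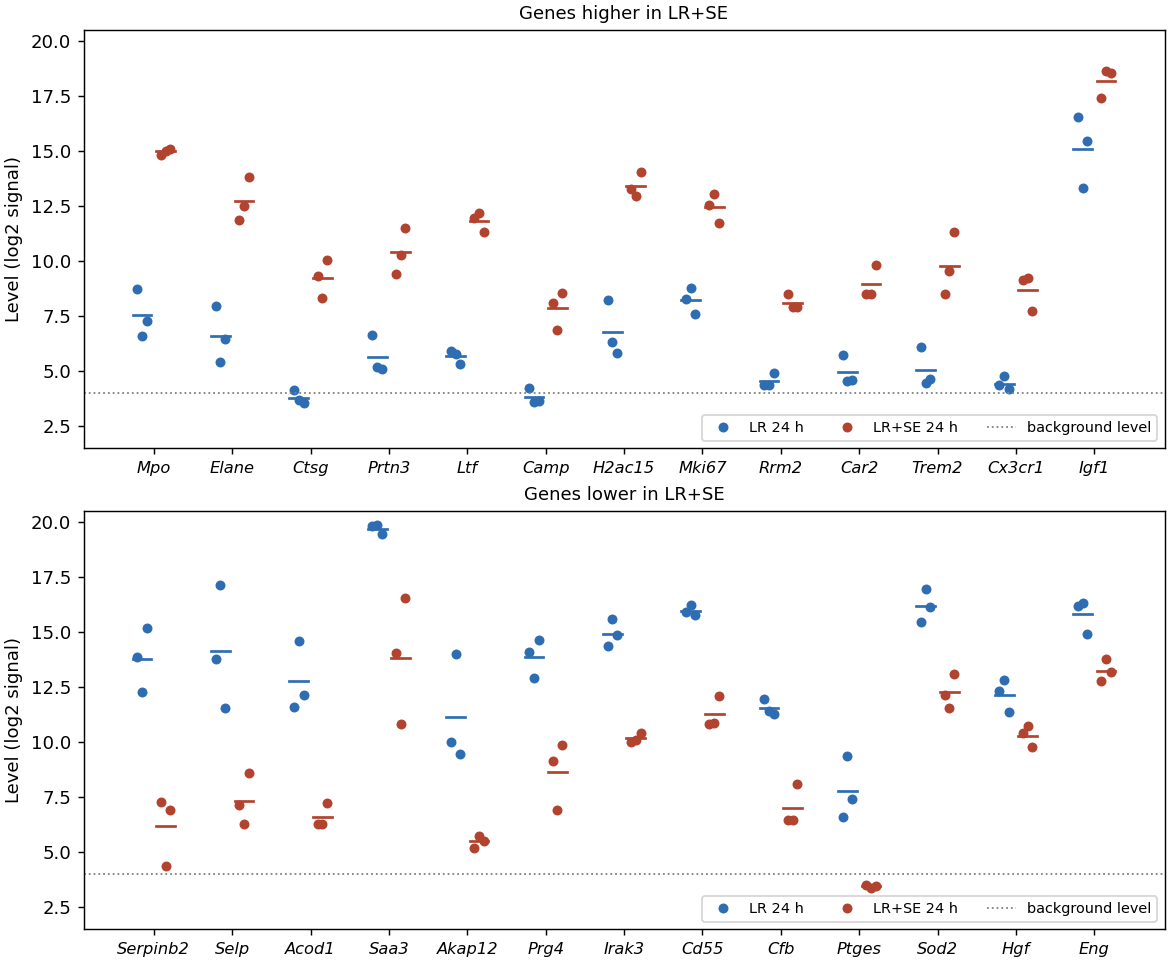
Level (log2 signal, y axis) on each array of LR (blue points) and LR+SE (red points) at 24 h for 13 genes higher and 13 genes lower in LR+SE, with bars at the group means and a dotted line at the background level of 3.98. For Mpo the LR+SE arrays lie at 14.84 to 15.10 and the LR arrays at 6.60 to 8.75, and for Serpinb2 the order is turned, with 4.38 to 7.25 against 12.28 to 15.20.

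Replication-dependent histone genes were the largest group of named calls. They encode the core histones and linker histone that package newly made DNA, their transcripts are made in S phase, and most end in a stem-loop in place of a poly(A) tail. Of 53 measured, 46 were called higher in LR+SE and none lower, against 2.04% of all clusters called higher. All 53 differences were above 0, from 0.11 to 6.65, with a median of 3.22. The called number stayed between 41 and 46 with each array left out. By class, 11 of 13 H2A genes (median 4.42), 12 of 15 H2B genes (3.00), 9 of 10 H3 genes (4.72), all 11 H4 genes (2.60) and 3 of 4 H1 genes (1.81) were called. In the RefSeq annotation 45 of the 53 lie on chromosome 13 and 8 on chromosome 3.

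H2ac15 led them, at 13.30, 12.95 and 14.04 in LR+SE and 8.22, 6.30 and 5.81 in LR, a difference of 6.65 ± 0.76 or 101-fold (adjusted p = 4.22e-05). H2ac24, the most abundant among those with the highest rises, was at 15.16, 15.13 and 15.83 against 11.70, 9.88 and 10.04 (4.84 ± 0.64, adjusted p = 0.000128). H3c10 was at 12.18, 11.18 and 11.86 against 7.76, 6.42 and 6.21 (4.94 ± 0.55, adjusted p = 3.84e-05). None of these overlapped between the groups. H3c14 and H3c15 held identical values on every array (5.10 ± 0.48 each, adjusted p = 1.15e-05), so they count as 1 measurement. Histone genes of a class are near-identical in their coding parts, so probes may read several of them and the 53 clusters are not 53 independent measurements. The 7 that did not pass were H1f2, H2bc4, H2ac6, H2bc1, H3c1, H2bc21 and H2ac21, with differences from 1.47 down to 0.11. H3c1, H2bc1 and H2bc21 had LR means below the background level.

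Because these genes moved together, the 250 bases before the RefSeq start site (GRCm38.p6) are printed for the gene of each class with the highest difference among those with a window and values of their own. Capitals mark TATAAA (the letters of the TATA box), CCAAT and ATTTGCAT (the octamer known from H2B promoters), each on either strand. The 1 TATAAA match of H2bc12 is on the opposite strand and away from the start site, so it is a match of letters only. The windows are chr13:23763418-23763667 (plus strand) for H1f1, chr13:21753913-21754162 (minus) for H2ac15, chr13:22035571-22035820 (plus) for H2bc12, chr13:21717378-21717627 (plus) for H3c10 and chr13:23581318-23581567 (plus) for H4c4.
H1f1: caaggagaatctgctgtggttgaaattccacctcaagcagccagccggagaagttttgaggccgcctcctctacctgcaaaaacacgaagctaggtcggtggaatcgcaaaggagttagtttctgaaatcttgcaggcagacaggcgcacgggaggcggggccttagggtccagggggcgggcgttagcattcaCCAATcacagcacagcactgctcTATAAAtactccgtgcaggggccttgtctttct
H2ac15: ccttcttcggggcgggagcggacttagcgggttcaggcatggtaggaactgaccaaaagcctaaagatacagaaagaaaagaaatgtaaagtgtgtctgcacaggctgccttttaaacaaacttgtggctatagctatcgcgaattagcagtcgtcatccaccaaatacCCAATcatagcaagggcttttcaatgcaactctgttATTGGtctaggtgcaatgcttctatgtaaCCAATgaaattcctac
H2bc12: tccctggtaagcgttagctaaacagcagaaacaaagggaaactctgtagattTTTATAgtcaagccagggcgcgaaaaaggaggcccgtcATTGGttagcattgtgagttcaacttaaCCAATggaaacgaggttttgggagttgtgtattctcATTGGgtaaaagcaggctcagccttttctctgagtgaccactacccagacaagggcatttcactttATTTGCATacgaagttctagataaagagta
H3c10: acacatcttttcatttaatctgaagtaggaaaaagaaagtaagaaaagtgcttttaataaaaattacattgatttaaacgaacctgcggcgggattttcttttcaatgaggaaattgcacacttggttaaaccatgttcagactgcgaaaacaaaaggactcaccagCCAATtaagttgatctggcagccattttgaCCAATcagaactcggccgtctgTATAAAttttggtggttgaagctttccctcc
H4c4: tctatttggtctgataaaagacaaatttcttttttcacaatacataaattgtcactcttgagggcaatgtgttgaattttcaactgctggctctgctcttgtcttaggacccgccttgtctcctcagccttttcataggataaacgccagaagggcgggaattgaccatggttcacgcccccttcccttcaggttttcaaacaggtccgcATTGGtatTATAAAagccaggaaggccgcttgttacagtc
The windows of 44 of the 46 called histone genes were in the table, without H4c14 and H3c7. CCAAT was in 35 of them (79.5%) against 34.5% of all 27025 windows, TATAAA in 21 (47.7%) against 13%, and ATTTGCAT in 10 (22.7%) against 1.61%. GAGGAA was in 11.4% of the histone windows and TTGCNNAA in 22.7%. The octamer and the C/EBP string can share letters. The share says only how often these letters occur before the genes that were called. Windows of neighbouring histone genes may share bases and so matches, which was not tested, and the 44 windows need not be independent.

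Other genes of the cell cycle pointed the same way with smaller differences. Mki67, which encodes the proliferation marker Ki-67, was at 12.56, 13.04 and 11.74 in LR+SE and 8.29, 8.79 and 7.59 in LR (4.22 ± 0.69, 18.7-fold, adjusted p = 0.000967), and it kept its call with each array left out. Of 25 genes of mitosis 5 were called higher and none lower, among them Plk1, a mitotic kinase (2.93 ± 0.65, adjusted p = 0.0120), Ube2c, an anaphase ubiquitin-conjugating enzyme (at least 4.49-fold higher, LR being below background, adjusted p = 0.0112), and Cenpe, a kinetochore motor (2.23 ± 0.46, adjusted p = 0.00784). The 5 calls stand beside 2.04% of all clusters called higher. All 25 differences were above 0, with a median of 1.27. Of the 25 genes, 20 did not overlap between the groups, against 10.2% of all clusters higher without overlap. Without replicate 2 of LR 2 of the mitosis genes were called and without replicate 3 of LR+SE 3, against 4 or 5 without each other array. Without that LR array Plk1 and Cenpe had adjusted p = 0.0730 and 0.0501. Plk1 also lost its call without replicate 2 of LR+SE. Ube2c lost it without replicate 3 of LR+SE (adjusted p = 0.0651). With only the 6 arrays in the fit 11 mitosis genes were called, with array weights 8, and without the 2 resected arrays at background for Y-linked genes 9.

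Of 26 genes of DNA replication and nucleotide synthesis 6 were called higher, against 2.04% of all clusters, and none lower. Again every difference was above 0 (median 0.95). Rrm2, the regulated subunit of ribonucleotide reductase, was at 8.52, 7.89 and 7.92 against 4.38, 4.35 and 4.92 (3.56 ± 0.79, adjusted p = 0.0124). Mcm5, of the replicative helicase, was higher by 2.15 ± 0.51 (adjusted p = 0.0191). Rrm2 was not called without replicate 1 of LR+SE or replicate 2 of LR (adjusted p up to 0.0604), and Mcm5 not without replicate 1 or 2 of either group (up to 0.121). The number of the 26 called fell to 2 without replicate 1 or 2 of LR+SE or replicate 1 of LR, and to 1 without replicate 2 of LR. Pcna, the sliding clamp, stood at 14.84, 14.87 and 15.35 against 14.88, 13.38 and 14.41 and did not pass, nor did Top2a (0.87) or Cdk1 (0.53).

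**Figure D3:**
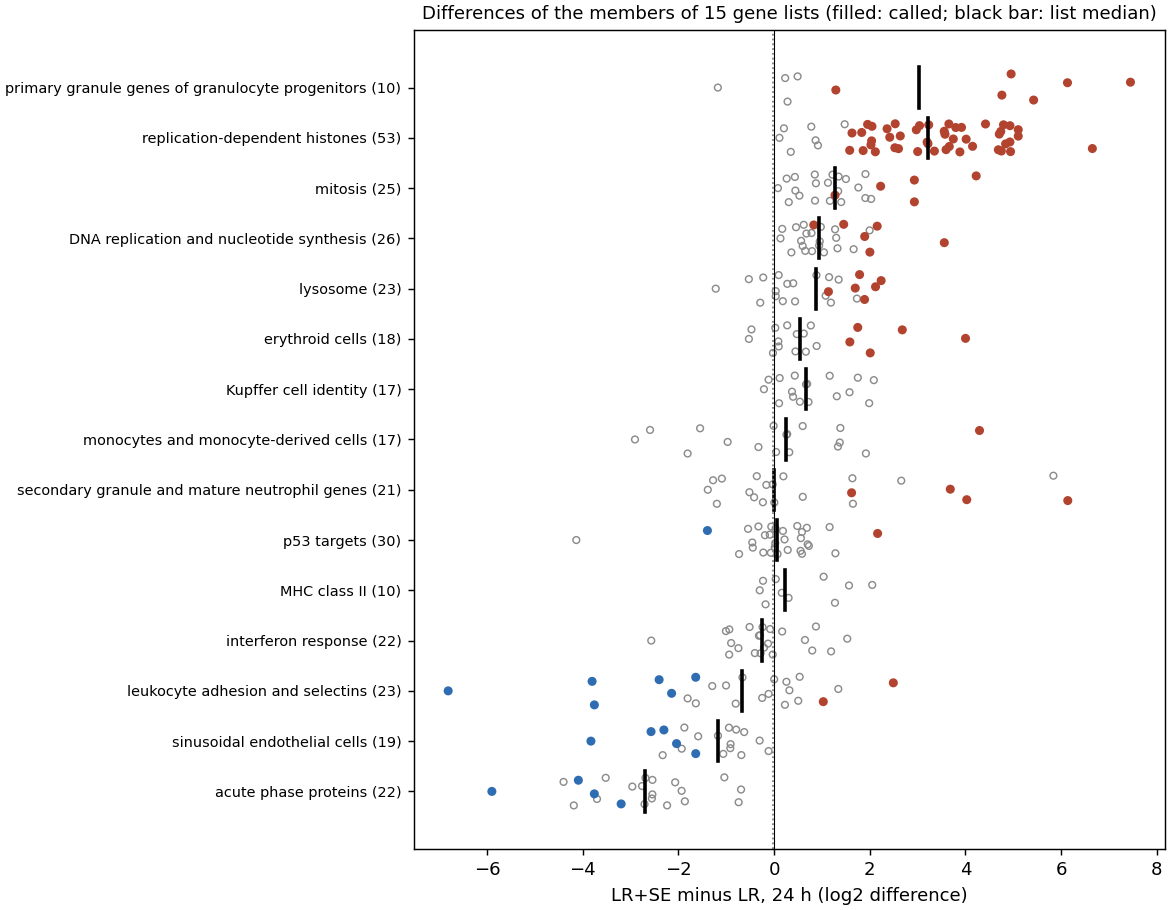
Difference between LR+SE and LR at 24 h (log2, x axis) for each measured member of 15 gene lists, whose sizes stand in brackets, with called members filled red (higher) or blue (lower), others open, list medians as black bars and the median of all clusters, -0.03, dotted. All 53 histone differences lie to the right of 0 and all 22 acute phase differences to the left.

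Of 18 genes of red cell precursors 5 were called higher, against 2.04% of all clusters, and none lower (median 0.55). Car2, carbonic anhydrase 2, was at 8.50, 8.52 and 9.81 against 5.72, 4.53 and 4.58 (4.0 ± 0.72, adjusted p = 0.00244). Slc4a1, the band 3 anion exchanger of the red cell membrane, was at 8.74, 8.19 and 8.18 against 5.84, 5.84 and 5.39 (2.68 ± 0.34, adjusted p = 0.000106), and Rhag, a Rh-associated membrane protein, was at 4.84, 4.36 and 5.66 against 3.30, 2.73 and 2.80, all below background (at least 1.96-fold higher, adjusted p = 0.000238). The groups did not overlap in any of the 3, and each kept its call with each array left out. Car1, carbonic anhydrase 1, was higher by 1.75 ± 0.44 (adjusted p = 0.0288), a call lost without replicate 3 of LR+SE or replicate 2 or 3 of LR (up to 0.176). Alas2, which starts heme synthesis in red cell precursors, lay at 6.5 against 7.0 and the erythroid regulators Gata1 and Klf1 stayed below background. Of the 18 members 8 were below background in both groups.

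Among macrophage genes Trem2, a lipid-sensing receptor of tissue macrophages, was at 8.51, 9.53 and 11.33 in LR+SE and at 6.10, 4.44 and 4.65 in LR (4.73 ± 0.81, 26.5-fold, adjusted p = 0.00167). Cx3cr1, the fractalkine receptor of patrolling monocytes and of some tissue macrophages, was at 9.12, 9.25 and 7.74 against 4.35, 4.76 and 4.18 (4.28 ± 0.89, adjusted p = 0.00791). The LR arrays lay near background for Cx3cr1, and neither gene overlapped between the groups. Vcam1, an adhesion molecule that liver macrophages also carry, was at 19.44, 18.98 and 18.97 against 16.99, 15.91 and 17.01 (2.49 ± 0.39, adjusted p = 0.000596). Scarb1, a receptor for high density lipoprotein, was higher by 2.54 ± 0.33 (adjusted p = 0.000119), and Gas6, a ligand that bridges dying cells to TAM receptors, by 1.98 ± 0.33 (adjusted p = 0.00129). Axl, which is one of those receptors, was higher by 2.44 ± 0.53 (adjusted p = 0.0101). Igf1, a growth factor of repair macrophages, was at 17.42, 18.63 and 18.56 against 16.54, 13.31 and 15.46 (3.10 ± 0.66, adjusted p = 0.00976). Csf1r, the receptor for macrophage colony-stimulating factor, was at 19.63, 19.49 and 19.31 against 18.28, 17.84 and 18.48 (1.28 ± 0.28, adjusted p = 0.0128), near the top of the scale. Cx3cr1 lost its call without replicate 2 of LR+SE (adjusted p = 0.0522), Axl and Igf1 without replicate 2 of either group (up to 0.0808 and 0.0817), and Csf1r without those or replicate 1 of LR+SE (up to 0.0927).

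Genes that define the macrophage populations mostly did not pass. None of 17 Kupffer cell genes passed (median 0.67, and 0.11 without replicate 2 of LR), while 15 of the 17 differences were above 0. Mean list levels were 15.4 to 15.9 in LR+SE and 13.9 to 15.3 in LR. Called higher were 2 of the 17 without replicate 3 of LR or with low clusters left out. With array weights, or without the 2 resected arrays at background for Y-linked genes, 1 was called higher. Clec4f differed by 1.16 (adjusted p = 0.519), Timd4, a phosphatidylserine receptor of resident macrophages, by 0.69, and Spic, a transcription factor of iron-handling macrophages, by 0.12. Cd163, the hemoglobin scavenger receptor, was at 18.68, 17.51 and 16.31 against 15.02, 15.08 and 16.43 (adjusted p = 0.150). Replicate 2 of LR was the lowest of the 6 arrays for Clec4f, at 15.94. The monocyte list had 1 of 17 called, Cx3cr1, and none without replicate 2 of LR+SE, with a median of 0.26, with members on both sides: Ccr2, the chemokine receptor that brings monocytes from marrow, was at 9.60, 8.74 and 9.34 against 7.23, 6.73 and 7.97 (1.92, adjusted p = 0.0625), Ly6c2 differed by 1.38 (adjusted p = 0.628), while Itgam (-1.81, adjusted p = 0.540) and Fn1 (-2.59, adjusted p = 0.144) lay lower. Marco, a scavenger receptor, was at 15.49, 13.45 and 12.80 against 15.47, 16.88 and 17.23 (-2.62, adjusted p = 0.0956). None of 10 MHC class II genes was called.

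Of 23 lysosomal genes 6 were called higher, against 2.04% of all clusters, and none lower (median 0.88). Gusb, beta-glucuronidase, was at 11.90, 12.24 and 10.93 against 9.42, 9.30 and 9.64 (2.24 ± 0.41, adjusted p = 0.00255), and Ctsa, a carboxypeptidase that protects other lysosomal enzymes, at 16.07, 17.17 and 16.51 against 15.26, 14.47 and 14.66 (1.79 ± 0.32, adjusted p = 0.00251). Both were called with each array left out. Npc1, which exports cholesterol from lysosomes, and Lipa, lysosomal acid lipase, were higher by 2.12 and 1.89 (adjusted p = 0.0201 and 0.0380) but both lost their calls without replicate 1 or 2 of either group, and Lipa also without replicate 3 of LR+SE, with adjusted p up to 0.116 and 0.237. Ctsb and Lgmn, both listed at 19.83 to 19.90, reached the upper end of the scale, which compresses differences. With single arrays left out 3 to 6 of the 23 were called, 3 of them without replicate 1 of either group.

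On the lower side the largest fall was that of Serpinb2, plasminogen activator inhibitor 2, a protease inhibitor that macrophages make on inflammatory stimulation. It was at 7.25, 4.38 and 6.91 in LR+SE and at 13.86, 12.28 and 15.20 in LR, a difference of -7.60 ± 0.82, or 194-fold lower (adjusted p = 2.86e-05). Acod1, the enzyme that makes itaconate in activated macrophages, was at 6.28, 6.26 and 7.22 against 11.60, 14.58 and 12.15 (-6.19 ± 1.02, adjusted p = 0.00111). Ptges, prostaglandin E synthase, was at 3.50, 3.34 and 3.47, below background on each array, against 6.57, 9.37 and 7.41 (at least 14-fold lower, adjusted p = 0.000106). Sod2, the mitochondrial superoxide dismutase, was at 12.16, 11.57 and 13.11 against 15.45, 16.95 and 16.13 (-3.90 ± 0.79, adjusted p = 0.00679), a call lost without replicate 2 of LR+SE (adjusted p = 0.0511). In none of the 4 did the groups overlap. Of 18 inflammatory effector enzymes 5 were called lower and none higher, with 4 or 5 called lower when any 1 array was left out and 3 with only the 6 arrays in the fit. Nos2, the inducible nitric oxide synthase, had both group means below background, and Cybb, the core of the phagocyte oxidase, was at a mean of 19.6 in both.

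Prg4, a lubricating proteoglycan, was at 9.15, 6.92 and 9.85 against 14.08, 12.92 and 14.62 (-5.23 ± 0.66, adjusted p = 0.000106). Cfb, factor B of the alternative complement pathway, was at 6.47, 6.44 and 8.09 against 11.94, 11.39 and 11.27 (-4.53 ± 0.58, adjusted p = 0.000112), and Cd55, a membrane regulator that dissociates complement convertases, was at 10.83, 10.85 and 12.10 against 15.93, 16.24 and 15.77 (-4.72 ± 0.94, adjusted p = 0.00569). With C8a (-1.57), these were the 3 called of 20 complement genes, and 10 of the 20 had differences above 0. C8a lost its call without replicate 2 of LR+SE (adjusted p = 0.0563). Irak3, a kinase homologue that restrains Toll-like receptor signalling, was at 10.02, 10.11 and 10.41 against 14.37, 15.58 and 14.86 (-4.76 ± 1.01, adjusted p = 0.00894), with adjusted p = 0.0559 without replicate 2 of LR. Clec4e, the receptor Mincle, differed by -4.01 ± 0.92 (adjusted p = 0.0163). It was not called without replicate 1 or 2 of LR+SE or replicate 2 of LR (up to 0.104). Among the other largest falls were Akap12, a signalling scaffold (-5.67 ± 0.73), Rasd1, a small GTPase (-4.72 ± 0.73), Slc7a2, an arginine transporter (-4.62 ± 0.82), and Ctla2a, a cysteine protease inhibitor homologue (-4.49 ± 0.57), each called with each array left out. Akap12 lay at 5.19, 5.74 and 5.51 in LR+SE and was highest in replicate 2 of LR.

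The fall of Saa3, an acute phase protein that mouse macrophages make themselves, was -5.90 ± 1.26 (adjusted p = 0.00964). Saa3 was at 19.83, 19.86 and 19.45 in LR, at the top of the scale, and at 14.05, 10.83 and 16.56 in LR+SE, which spread widely without reaching the LR arrays. Without replicate 2 of LR+SE it was not called (adjusted p = 0.0890). Of 22 acute phase genes 4 were called lower, Saa3, Itih4 (-4.09), Fga (-3.76) and Hpx (-3.20), and none higher. Itih4 lost its call without replicate 1 or 2 of either group (up to 0.0748), Hpx without any single array but replicate 3 of LR+SE (up to 0.287) and Fga without any single array (up to 0.162). All 22 differences were below 0, with a median of -2.70, and 19 did not overlap between the groups, against 10.5% of all clusters. The called number was 0 without replicate 2 of LR+SE, 1 without replicate 1 of either group or replicate 2 of LR, and 8 without replicate 3 of LR+SE. It was 11 with only the 6 arrays in the fit, 2 with the arrays centred on their medians and 8 with a variance trend, with array weights or with low clusters left out. Mean levels of the 22 genes were 10.8 to 12.7 in LR+SE and 13.6 to 14.8 in LR. Most of these proteins are made mainly by hepatocytes. Transcripts of other hepatocyte products lay at means of 8.02 to 8.97 against 8.74 to 9.67 over 28 genes, with 1 of 28 called lower (Fabp1, -1.99, lost without any single array but replicate 3 of LR, up to 0.175), 23 of 28 below 0 and a median of -0.54. Alb, albumin, was at 19.38 to 19.86 against 19.76 to 19.83. The part of hepatocyte RNA in the acute phase differences was not tested.

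Selp, P-selectin, which captures leukocytes on activated endothelium and platelets, was at 7.14, 6.26 and 8.61 in LR+SE and at 13.78, 17.14 and 11.54 in LR (-6.82 ± 0.91, 113-fold lower, adjusted p = 0.00013). Sele, E-selectin, made by activated endothelium, was at 5.96, 5.95 and 5.65 against 9.16, 11.56 and 8.11 (-3.76 ± 0.61, adjusted p = 0.000921). Jam2, a junctional adhesion molecule, was at 13.08, 14.07 and 13.24 against 17.41, 17.69 and 16.70 (-3.81 ± 0.73, adjusted p = 0.00411). The 3 genes kept their calls with each array left out. Of 23 genes of leukocyte adhesion 6 were called lower, with Icam1 (-2.41), F11r (-2.14) and Pecam1 (-1.64) besides these, and 2 higher, Vcam1 and Cd34 (1.03), with a median of -0.66. Of all clusters 1.22% were called lower and 2.04% higher. Without replicate 2 of either group 4 were called lower. Icam1 lost its call without replicate 2 of either group (up to 0.139), F11r without replicate 2 of LR (0.0855), Pecam1 without those or replicate 3 of LR+SE (up to 0.170), and Cd34 without replicate 1 or 2 of LR+SE or replicate 2 or 3 of LR (up to 0.155).

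Markers of sinusoidal endothelial cells moved with these genes. All 19 lay lower in LR+SE (median -1.17). The 5 called, against 1.22% of all clusters called lower, were Rspo3, Eng, Clec4g, Bmp2 and Pecam1. Mean levels of the list were 10.8 to 11.3 in LR+SE and 12.3 to 12.9 in LR. Clec4g, a lectin of sinusoidal endothelium, was at 14.02, 13.74 and 14.67 against 16.75, 15.84 and 16.76 (-2.31 ± 0.47, adjusted p = 0.00716), and Eng, a coreceptor for transforming growth factor beta, at 12.78, 13.77 and 13.17 against 16.19, 16.31 and 14.93 (-2.57 ± 0.67, adjusted p = 0.0363). Clec4g lost its call without replicate 2 of LR+SE (adjusted p = 0.0529), Bmp2 without replicate 2 of LR (0.0612), Pecam1 without replicate 2 or 3 of LR+SE or replicate 2 of LR (up to 0.170), and Eng without any single array but replicate 3 of LR (up to 0.154). Stab2 and Kdr, other defining markers, differed by -0.63 and -0.92 and did not pass. Cdh5, which is also on the Kupffer cell list, differed by -0.12 and did not pass. Without replicate 2 of either group 2 of the 19 were called, and without replicate 3 of LR+SE 3. The part of endothelial RNA in the adhesion and growth factor differences was not tested.

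Growth factors known to act in liver regeneration differed in both directions. Hgf, hepatocyte growth factor, was at 10.40, 10.71 and 9.78 in LR+SE and at 12.31, 12.83 and 11.35 in LR (-1.87 ± 0.45, 3.64-fold lower, adjusted p = 0.0224). The groups did not overlap, but the call was lost without replicate 1 or 3 of LR+SE or replicate 1 or 2 of LR (adjusted p up to 0.140). Rspo3, an amplifier of Wnt signalling that endothelium of the central vein supplies, was at 5.53, 5.26 and 5.46 against 9.66, 9.59 and 8.48 (-3.83 ± 0.66, adjusted p = 0.00167), and Bmp2, an endothelial regulator of hepcidin, was at 7.87, 7.93 and 7.95 against 9.75, 10.15 and 9.98 (-2.04 ± 0.45, adjusted p = 0.0112, and 0.0612 without replicate 2 of LR). Of 23 such genes 4 were called lower, with Tgfb2 as the other one (at least 1.78-fold lower, LR+SE being below background), and 2, Igf1 and Pdgfb (1.74), higher. The number lower was 2 without replicate 1 of LR+SE or replicate 2 of LR, and the number higher was 0 without replicate 2 of LR+SE and 1 without replicate 2 of LR. Tgfb2 lost its call without replicate 1 of LR+SE (adjusted p = 0.0508), Pdgfb without replicate 2 of LR+SE (0.0670) and Igf1 without replicate 2 of either group (up to 0.0817). Tgfb1, which restrains hepatocyte growth, was at 13.42 to 13.86 against 13.59 to 14.25 (-0.14). Receptors and matrix genes of the focal adhesion list gave 5 called lower and 2 higher of 49, with Flt1, a receptor for vascular endothelial growth factor (-2.56 ± 0.50, adjusted p = 0.00482), and Col4a2, a basement membrane collagen (-2.24 ± 0.37, adjusted p = 0.001), on the lower side, and Itgb5, an integrin subunit (2.31 ± 0.41, adjusted p = 0.00212), on the higher, all called with each array left out. Without replicate 2 of either group 3 of the 49 were called lower, and with quantile normalization 1 was called higher.

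Classical cytokines differed less. Il1b, interleukin 1 beta, was at 15.80, 15.20 and 17.38 against 17.92, 17.61 and 17.47 (-1.54, adjusted p = 0.185), without overlap. Tnf was at 11.16, 11.12 and 11.71 against 12.44, 12.78 and 11.89 (-1.04, adjusted p = 0.592), and Il6 overlapped between the groups (-0.86, adjusted p = 0.796). Il10, the anti-inflammatory cytokine, was at 14.32, 14.93 and 15.01 against 13.66, 13.30 and 13.45 (1.28, adjusted p = 0.307). None of these passed, although in all but Il6 the groups stood apart. Of 26 cytokine and receptor genes 2 were called lower, Il1r1, the signalling interleukin 1 receptor (-2.98 ± 0.76, adjusted p = 0.0340), and Csf3, granulocyte colony-stimulating factor (-1.63, adjusted p = 0.0324), and 1 higher, Csf1r. Csf3 was at 3.63, 3.26 and 4.17 against 4.61, 6.89 and 4.45, low in both groups. Of the single arrays left out, Il1r1 kept its call only without replicate 3 of LR, and Csf3 did not without replicate 1 or 2 of LR+SE or replicate 2 of LR (up to 0.202 and 0.177). Cxcr4, the receptor that holds progenitors and neutrophils in the marrow, was at 9.59, 9.86 and 10.22 against 7.82, 6.55 and 6.95 (2.79 ± 0.55, adjusted p = 0.00562) and kept its call with each array left out.

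Few genes of p53 and cell death were called. Of 30 p53 targets 1 was called higher, Plk3, a stress kinase (2.16 ± 0.44, adjusted p = 0.00690), and 1 lower, Fas, the death receptor (-1.40 ± 0.36, adjusted p = 0.0357), beside the 3.26% of all clusters called. Plk3 had adjusted p = 0.0518 without replicate 2 of LR, and Fas kept its call only without replicate 3 of LR+SE (up to 0.186). Cdkn1a, the cell cycle inhibitor p21, overlapped between the groups at 12.06, 11.58 and 13.16 against 13.42, 13.61 and 11.97 (-0.73, adjusted p = 0.776), and Mdm2, which degrades p53, differed by 0.58 (adjusted p = 0.671). In the apoptosis list 1 of 33 was called, Bak1, a pore-forming effector (1.41 ± 0.30, adjusted p = 0.00941, lost without replicate 3 of LR+SE or replicate 2 of LR, up to 0.0557). The stress-inducible Hmox1 stood at 19.82 to 19.90 on all 6 arrays. Cstb, a cathepsin inhibitor, was at 8.81, 8.62 and 10.05 against 11.04, 10.42 and 10.34 (-1.44, adjusted p = 0.0547), and Serping1, the C1 inhibitor, differed by -0.70 (adjusted p = 0.721).

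In several lists of basic functions no member was called. No gene was called among 22 of the interferon response (median -0.26), 60 cytoplasmic ribosomal proteins (-0.40), 30 proteasome subunits (-0.33), 30 of the respiratory chain (-0.39) or 18 chaperones (-0.23). Below 0 lay 53 of the 60 ribosomal, 26 of the 30 proteasome and 21 of the 30 respiratory chain differences. When replicate 3 of LR+SE was left out, 3, 5 and 3 of these genes were called lower. With quantile normalization or array weights 4 proteasome genes were called lower. The circadian list had 3 of 18 called higher, which fell to 2 without replicate 3 of LR and to 1 without each other array. They were Nr1d1, the clock repressor REV-ERB alpha, at 9.67, 9.36 and 10.37 against 7.37, 7.21 and 8.01 (2.27 ± 0.52, adjusted p = 0.0166), Bhlhe40, another clock repressor, at 17.53, 17.42 and 16.88 against 15.09, 15.17 and 15.13 (2.15 ± 0.48, adjusted p = 0.0124), and Nr1d2, the related REV-ERB beta, which lost its call without any single array (up to 0.151). Nr1d1 lost its call without replicate 3 of LR+SE or replicate 1 or 2 of LR (up to 0.0897), and Bhlhe40 without replicate 1 or 2 of LR+SE (up to 0.0643). The methods place the operations of both groups in the same part of the morning and collection 24 h after resection. Hours of collection of single arrays were not given. Immediate early genes, which cell isolation itself can induce, had 2 of 25 called higher, Fosb (1.92) and Atf3 (1.53), with 21 of 25 above 0 and a median of 0.77. Fosb lost its call without any single array (up to 0.186) and Atf3 without replicate 2 of LR+SE or replicate 1 or 2 of LR (up to 0.134). With only the 6 arrays in the fit 7 of the 25 were called higher.

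Further macrophage lists held calls on both sides. Of 28 genes of pattern recognition and NF-kappaB feedback 3 Toll-like receptors were called higher, Tlr4 (1.62), Tlr8 (1.69) and Tlr13 (1.42), and 3 genes lower, Irak3, Tlr1 (-2.52) and Tnip1 (-2.18), a brake on NF-kappaB, with a median of 0.06. None was called higher without replicate 2 of either group and 1 without replicate 1 of either, and 1 was called lower without replicate 2 of LR+SE and none without replicate 2 of LR. Tlr4 and Tlr13 both lost their calls without replicate 1 or 2 of either group (up to 0.112 and 0.124), and Irak3 without replicate 2 of LR (0.0559). Of 16 genes of apoptotic cell clearance Axl, Gas6 and Lrp1 (2.05) were called higher and Mfge8 (-1.74) and Cd93 (-2.67) lower. Mfge8 kept its call only without replicate 3 of LR (up to 0.137), Axl lost it without replicate 2 of either group (up to 0.0808), and 1 of the 16 was called higher without replicate 2 of LR+SE. Among 15 serpins and genes of plasminogen activation Plau, urokinase, was at 8.96, 10.05 and 8.66 against 6.21, 6.25 and 6.94 (2.75 ± 0.49, adjusted p = 0.0023), the opposite direction to Serpinb2, its inhibitor, and it kept its call with each array left out. Tlr8 lost its call without replicate 2 or 3 of LR+SE or replicate 2 of LR (up to 0.122), Tnip1 without replicate 2 of either group (up to 0.0567), Lrp1 without replicate 1 of either group or replicate 2 of LR+SE (up to 0.0984), Tlr1 without any single array but replicate 3 of LR+SE (up to 0.200) and Cd93 without replicate 2 or 3 of either group (up to 0.237). Of 21 genes of lipid-associated and repair macrophages 4 were called higher, Trem2, Ccl24 (3.26), Igf1 and Pdgfb, and 1 lower, the matrix protease Mmp14 (-3.49), while 1 was called higher without replicate 2 of LR+SE and 2 without replicate 2 of LR. Ccl24 kept its call only without replicate 1 of LR (up to 0.215), and Mmp14 lost it without replicate 1 of LR+SE or replicate 2 of LR (up to 0.0976).

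Markers of other cells that the selection could carry along were examined in the same way, beside the 3.26% of all clusters called. T and NK cells had 1 of 20 called (2 without replicate 1 of LR+SE), Nkg7, a granule protein of killer cells, at 5.83, 5.31 and 6.05 against 3.85, 3.31 and 3.79, all below background (at least 3.36-fold higher, adjusted p = 0.000164), and mean list levels of 3.68 to 3.78 against 3.67 to 3.89. B cells had 1 of 16, Cd22 (2.24 ± 0.41, adjusted p = 0.00254), at 4.78 to 4.93 against 4.61 to 5.06. Dendritic cells had 2 higher and 1 lower of 16, Clec9a (2.61), Irf8 (1.00) and Fscn1 (-3.78). Fscn1, an actin-bundling protein of mature dendritic cells, kept its call with each array left out, while Clec9a lost it without replicate 2 or 3 of LR+SE or replicate 2 of LR (up to 0.0938) and Irf8 without replicate 1 or 2 of either group (up to 0.162). Of 12 platelet genes Selp was the 1 called. Pf4 differed by -1.84 (adjusted p = 0.485), and the platelet glycoproteins Gp9, Gp6 and Gp5 lay at 2.59 to 4.19 on the 6 arrays, near or below background. Stellate cells and fibroblasts had 1 of 15 (2 without replicate 3 of LR), Dcn (-2.90, lost without replicate 1 or 2 of either group, up to 0.109), with Col1a1, Col3a1 and Lrat not called. Mast cells, basophils and eosinophils had 1 of 15, Kit (-1.97, lost without replicate 1 or 3 of LR+SE or replicate 2 of LR, up to 0.140). Among 1080 odorant receptors, which these cells should not express, 2 were called, both lower, with 0 without replicate 1 of LR+SE, 1 without replicate 3 of LR+SE or replicate 1 or 2 of LR, and 8 without replicate 3 of LR. Of the 1080, 744 lay lower in LR+SE and 336 higher (median -0.13). Without overlap 127 were lower and 23 higher, against 10.5% and 10.2% of all clusters. Small differences of genes near background are to be read beside this shift.

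The arrays at 24 h were then set against the other groups, to ask whether the splenectomy difference was the same at other times. Without resection, SE against intact gave 123 calls (0.554%), 0.185% of clusters being higher and 0.369% lower. LR+SE against LR gave 28 calls at 3 days (0.126%, with 0.0991% higher and 0.027% lower) and 364 at 7 days (1.64%, with 0.95% higher and 0.689% lower). The test of the difference itself, the splenectomy difference at 24 h minus that without resection, called 152 clusters (0.684%), 105 higher (0.473%) and 47 lower (0.212%). Against 3 days it called 400 (1.8%), 210 higher and 190 lower, and against 7 days 511 (2.3%), 244 higher and 267 lower. The 24 h arrays enter each of these 3 tests, so the counts are not independent. With each array of a test left out, the test against no resection gave 49 to 162 calls, with under 100 without replicate 2 or 3 of LR+SE, replicate 2 of LR, or replicate 2 or 3 of intact or SE. That against 3 days gave 169 to 634, the lowest without replicate 2 of LR at 3 days and the highest without replicate 3 of LR+SE at 3 days. It also lay under 270 without replicate 2 of LR+SE, replicate 1 or 2 of LR, replicate 2 of LR+SE at 3 days or replicate 1 or 3 of LR at 3 days. The test against 7 days gave 311 to 675, the lowest without replicate 2 of LR, followed by 328 without replicate 2 of LR+SE. Since the intact arrays were at background for Y-linked genes and the SE arrays were not, splenectomy and this unlabelled difference cannot be told apart in the comparison without resection. Leaving out the 2 resected arrays with that property gave 577 calls against 3 days and 645 against 7 days.

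Among the granule genes Ctsg differed more at 24 h than in each other comparison, by 4.91 against no resection, 4.55 against 3 days and 4.40 against 7 days (adjusted p = 0.00819, 0.00524 and 0.00535). Ms4a3 (3.56, 4.49 and 3.55) and Prtn3 (4.34, 4.21 and 3.47) passed in each as well. Ctsg passed in each with any 1 array left out. Ms4a3 did not pass against no resection without replicate 3 of intact, SE or LR+SE or replicate 2 of LR (up to 0.0720), nor Prtn3 against 7 days without replicate 2 of LR (0.0528). For Mpo the corresponding values were 5.67, 4.24 and 3.86, none of which passed (adjusted p = 0.0646, 0.146 and 0.183). At the later times Mpo stood at 8.60, 8.69 and 4.87 at 3 days and at 10.19, 6.47 and 7.86 at 7 days, against 3.86 to 4.62 and 3.99 to 5.21 in LR. Ltf differed from no resection (4.88, adjusted p = 0.0453) and from 7 days (4.67, adjusted p = 0.0279), and the test against 3 days did not pass (3.96, adjusted p = 0.0749). The test of Ltf against no resection passed with a single array left out only where this was replicate 2 of SE (up to 0.114). That against 7 days did not pass without replicate 1 or 2 of LR+SE or 2 or 3 of LR at 24 h, nor without replicate 1 or 2 of LR or 2 or 3 of LR+SE at 7 days (up to 0.0770). Without the 2 resected arrays at background for Y-linked genes the test of Ltf against 7 days did not pass (4.24, adjusted p = 0.0589).

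In the histone list 36 of 53 were called higher at 24 h than at 3 days and 26 of 53 than at 7 days, against 0.946% and 1.1% of all clusters, and 3 of 53 than without resection, against 0.473%. With each array of the test left out the number against 3 days was 28 to 45. Against 7 days it was 10 to 26, with 17 or fewer without replicate 1 or 3 of LR+SE or 2 or 3 of LR at 24 h, or without replicate 2 or 3 of either group at 7 days. The splenectomy median of the list was 1.40 without resection, 3.22 at 24 h, -0.20 at 3 days (0.26 without replicate 2 of LR+SE at 3 days) and 0.72 at 7 days. H2ac15 had group means of 6.78 in LR and 13.43 in LR+SE at 24 h, and of 11.81 and 11.17 at 3 days. Mki67 was at 8.29, 8.79 and 7.59 in LR at 24 h and at 12.23 to 12.80 in LR at 3 days, while LR+SE lay at 11.74 to 13.04 at 24 h and 10.98 to 12.63 at 3 days. The splenectomy difference of Mki67 at 24 h exceeded that at 3 days by 5.03 (adjusted p = 0.0100) and that at 7 days by 4.63 (adjusted p = 0.0130), and the test against no resection gave 1.12 (adjusted p = 0.686).

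**Figure D4:**
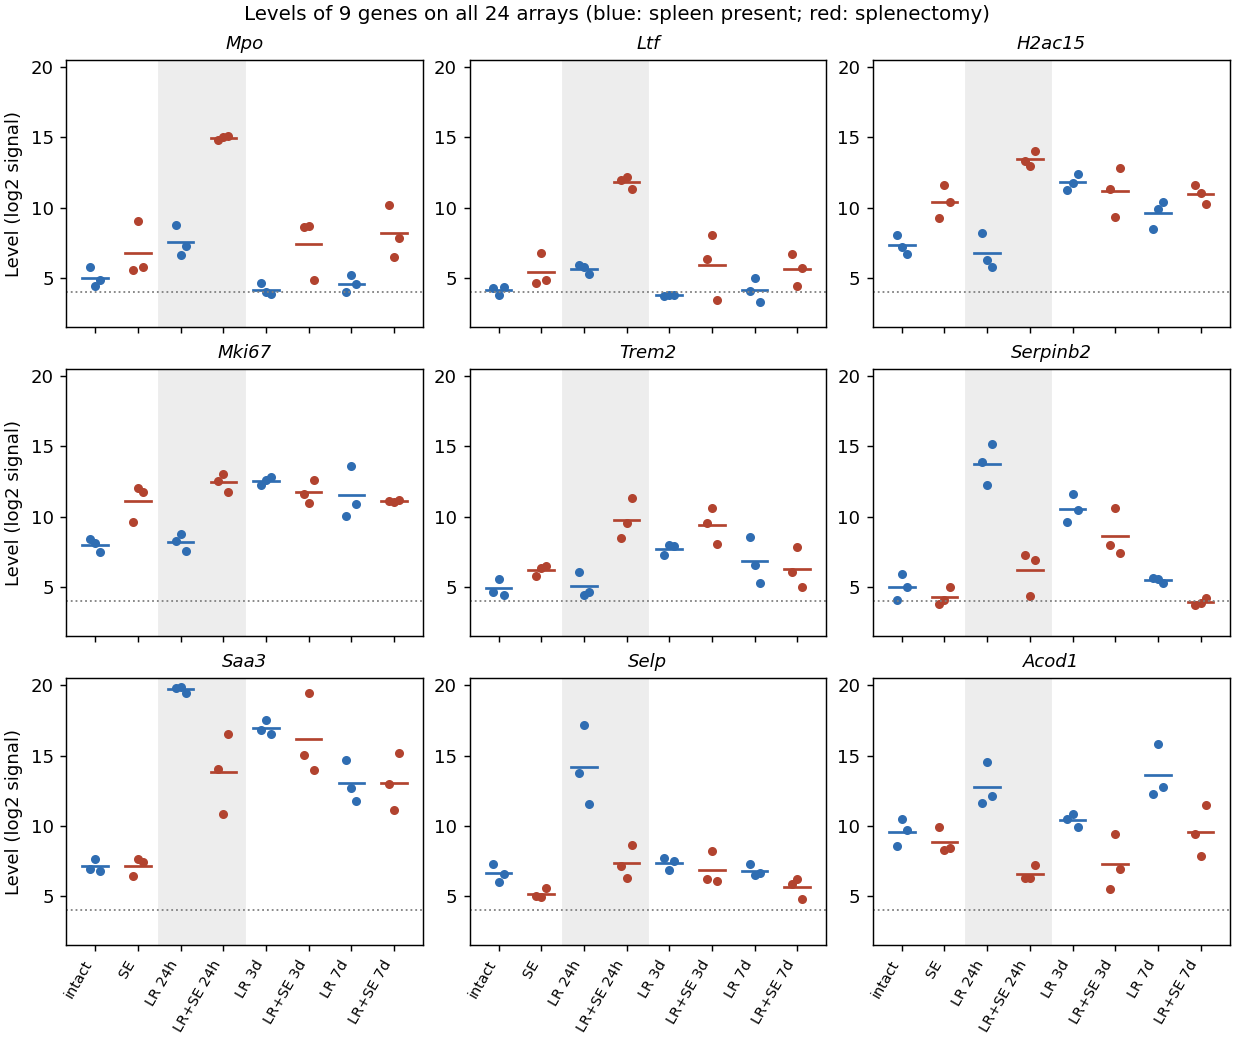
Levels (log2 signal, y axis) of 9 genes on each of the 24 arrays by group (x axis), blue with the spleen in place and red after splenectomy, with bars at group means, a dotted line at the background level and the 24 h groups shaded. Serpinb2 stands at 12.28 to 15.20 in LR at 24 h and at 4.38 to 7.25 in LR+SE, and Mki67 in LR stands at 7.59 to 8.79 at 24 h and at 12.23 to 12.80 at 3 days.

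The levels before resection were set beside the genes lower at 24 h. LR at 24 h against intact gave calls for 7.59% of all clusters, 3.47% higher and 4.12% lower, and LR+SE at 24 h against SE for 1.33%, 0.955% higher and 0.374% lower. Serpinb2 was at 4.06, 5.94 and 5.03 in intact liver and 13.78 ± 1.46 (mean ± SD) in LR at 24 h, a rise of 8.77 (adjusted p = 3.68e-06), and at 4.29 ± 0.65 in SE and 6.18 ± 1.57 in LR+SE, a difference of 1.89 (adjusted p = 0.354). Selp gave 7.52 in LR against intact (adjusted p = 4.30e-05) and 2.15 in LR+SE against SE (adjusted p = 0.333), Cfb gave 2.62 (adjusted p = 0.00653) and 0.02 (adjusted p = 0.995), and Jam2 passed in both, with 7.79 (adjusted p = 3.68e-06) and 4.02 (adjusted p = 0.00499). Acod1 passed in neither, with 3.18 (adjusted p = 0.0637) and -2.28 (adjusted p = 0.377). Saa3, which stood at 7.13 ± 0.44 in intact liver and 7.15 ± 0.64 in SE, gave 12.58 (adjusted p = 6.43e-06) and 6.67 (adjusted p = 0.00727, and 0.0642 without replicate 3 of LR+SE). These comparisons use the same LR and LR+SE arrays as the one at 24 h and so are not independent of it, and the intact arrays carry the limit given above. The splenectomy difference of Serpinb2 at 24 h minus that without resection was -6.88, minus that at 3 days -5.68 and minus that at 7 days -6.06 (adjusted p = 0.0102, 0.0139 and 0.00736). Saa3 did not pass in any of the 3 (adjusted p = 0.133, 0.187 and 0.0910). Hgf was called only against 3 days (-3.31, adjusted p = 0.00949).

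Acute phase genes were then compared between times. Their splenectomy median was -0.11 without resection, -2.70 at 24 h, 2.63 at 3 days and 0.81 at 7 days. At 3 days none of the 22 was called in either direction. Their mean levels there were 12.05, 16.27 and 11.81 in LR+SE and 11.10, 10.38 and 11.33 in LR, and without replicate 2 of LR+SE at 3 days, the highest array, the median was 1.19. Without replicate 3 of that group 3 were called higher at 3 days. In the test of the difference 10 of the 22 were called lower at 24 h than at 3 days, against 0.856% of all clusters, and 3 than at 7 days, against 1.2%. The 10 became 5 without replicate 2 of LR at 3 days, 6 without replicate 1 of LR at 3 days or replicate 1 or 2 of either group at 24 h, and 17 without replicate 3 of LR+SE at 3 days. The 3 became 6 without replicate 3 of LR+SE at 24 h. They became 2 without replicate 1 or 2 of either group at 24 h, replicate 3 of LR+SE at 7 days, or replicate 2 or 3 of LR at 7 days. Fga differed between 24 h and 3 days by -6.90 (adjusted p = 0.0156, and 0.0538 without replicate 2 of LR at 3 days) and Hpx by -6.62 (adjusted p = 0.00835). The medians of the hepatocyte list were -2.94, -0.54, 2.38 and 0.37 at the same times, and its part in the acute phase differences was not tested. Sinusoidal endothelial markers had medians of -0.25, -1.17, 0.39 and 2.45. In the test of the difference 17 of 19 were called lower at 24 h than at 7 days, against 1.2% of all clusters. Clec4g had a value of -6.50 there (adjusted p = 5.04e-05). The number was 14 to 17 with single arrays left out. At 7 days itself 11 of the 19 were called higher in LR+SE, against 0.95% of all clusters, so that the 7 day difference enters this count.

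**Figure D5:**
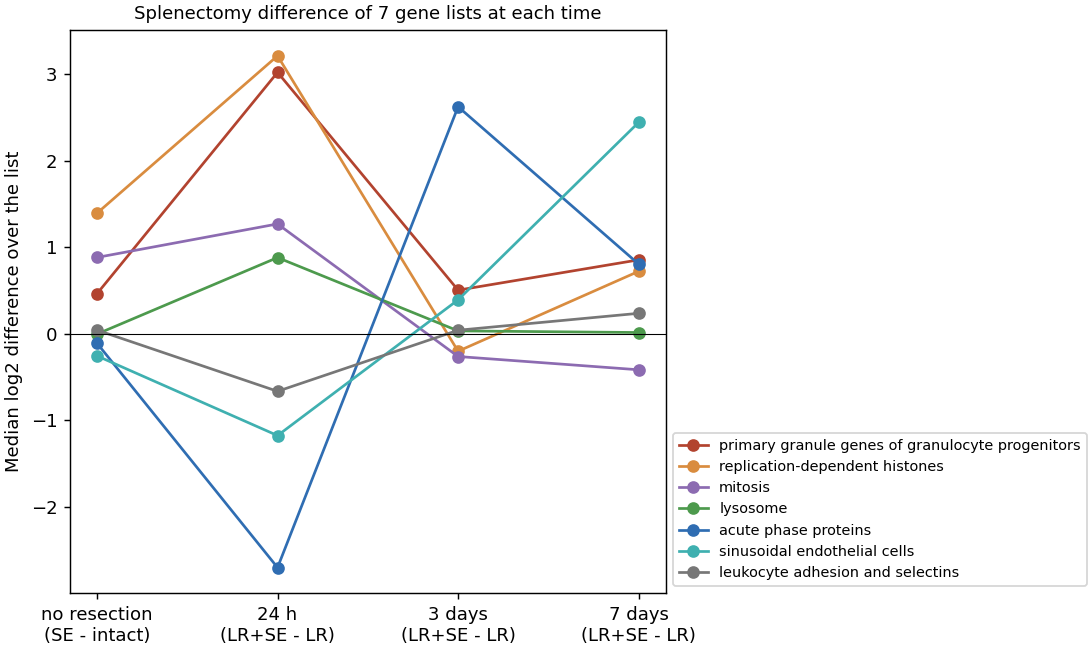
Median splenectomy difference (log2, y axis) of 7 gene lists without resection and at 24 h, 3 days and 7 days (x axis), each point from the 6 arrays of that time. The histone and primary granule medians peak at 24 h, at 3.22 and 3.02, and the acute phase median is -2.70 at 24 h and 2.63 at 3 days, where none of its 22 genes was called.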

How the data were processed

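RNA of F4/80+ liver cells was measured on 24 Clariom S mouse arrays, 8 groups of 3 by the titles. Cells were freed with collagenase, passed over a density gradient and bound to F4/80 magnetic beads. The deposited table held normalized log2 values per array and transcript cluster, for which the authors used RMA (robust multi-array averaging) in the Transcriptome Analysis Console. Its versions and variant are not given in the sources used here, and values near the top of the scale are compressed. Control probesets (6640 of 28846 entries) were dropped, which left 22206 transcript clusters, 19572 with 1 gene symbol and 2634 with none. For 55 symbols with several clusters, the cluster of highest mean level stood for the gene. No filter on low values was applied, and the number of arrays limits the precision.

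A model with 1 mean per group was fitted to all 24 arrays with limma 3.58.1 in R 4.3.3 (16 residual and 4.23 prior degrees of freedom), which was tested on simulated data. Clusters were called at an adjusted p (Benjamini-Hochberg, over all clusters of a comparison) under 0.05, and ± after a difference is its standard error. Named genes were the 15 largest rises and 15 largest falls among calls without overlap between the groups, up to 4 called members of each of 50 gene lists, and 25 fixed genes, of which 3 (Ly6g, Bax and Serpina3g) had no cluster by symbol. Other members of lists, such as Ngp, S100a9, Lcn2, Cd163, Alb and Fcnb, were picked with their values already seen. The members and lists were chosen with earlier results of these data known. Replicate numbers were not used to pair the arrays in the main fit. Alternatives were other fits, scalings and filters, array weights, a replicate block, and each of the 6 arrays left out. Added after seeing the data were the counts of list members under each setting, the tests between times without each array that enters them, and a fit without the 2 resected arrays at background for Y-linked genes. Promoter windows of 250 bases came from RefSeq (GRCm38.p6). The genome build of the array annotation is not given in the sources used here. The plots used python 3.11.15 with matplotlib 3.10.9.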

Additional observations from a re-analysis of the deposited data

Results flagged for a closer look

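The splenectomy difference at 24 h differed from that of another time by the test of the difference itself for 152 clusters against no resection, 400 against 3 days and 511 against 7 days. Among the named genes called at 24 h this held for 21, 57 and 54. The named genes had been chosen by the size of the 24 h difference, on which these tests also rest, and the intact arrays differ from the SE arrays in Y-linked genes, which cannot be told apart from splenectomy in the first of the 3 tests.

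Of the 15 largest rises and 15 largest falls, 11 genes passed in all 3 tests, and each is given with the 24 h difference minus that without resection, at 3 days and at 7 days. Of those higher at 24 h, Ctsg had 4.91, 4.55 and 4.40, Prtn3 had 4.34, 4.21 and 3.47, and Ms4a3 had 3.56, 4.49 and 3.55. The histones H3c14 and H3c15, which hold identical values, had 4.01, 5.85 and 4.59, and H3c13 had 3.56, 5.60 and 4.52. Of those lower at 24 h, Serpinb2 had -6.88, -5.68 and -6.06, Akap12 had -5.42, -5.68 and -6.15, and Rasd1 had -5.06, -6.61 and -5.08. Ctla2a had -4.88, -5.87 and -3.36, and Ptges had -4.50, -4.55 and -4.64. The LR+SE arrays at 24 h were all below background for Ptges. Ctsg, H3c14, Serpinb2 and Ptges passed in all 3 tests with any 1 array of the test left out. Against no resection Akap12 did not pass without replicate 2 of intact (adjusted p = 0.0503), Ms4a3 without replicate 3 of intact, SE or LR+SE or replicate 2 of LR (up to 0.0720), Rasd1 without any intact array, replicate 3 of SE, replicate 2 or 3 of LR+SE or replicate 2 of LR (up to 0.0905), and H3c13 without replicate 1 of intact, 1 or 3 of SE, or 2 or 3 of LR+SE or LR (up to 0.0815). Against 7 days Prtn3 did not pass without replicate 2 of LR at 24 h (0.0528), and Ctla2a without any 24 h array but replicate 3 of LR+SE, replicate 3 of LR at 7 days or replicate 1 of LR+SE at 7 days (up to 0.0706). Groups held 3 arrays each, too few for the search for single arrays far from the rest.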

How the results depend on the processing

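The 723 calls at 24 h were 675 with only the 6 arrays (464 shared), 718 with a variance trend, 720 with robust moderation, 865 with low clusters left out, 697 with quantile normalization and 715 with arrays centred on their medians (505 higher and 210 lower), and 1090 with array weights. Leaving out single arrays gave 349 to 691, the lowest without replicate 2 of LR+SE. Without the 2 resected arrays at background for Y-linked genes there were 895 calls, 706 of them shared. The test against no resection gave 231 calls with low clusters left out, 101 with quantile normalization, 350 with array weights, 268 without those 2 arrays and 49 to 162 with single arrays left out. Against 3 days it gave 611 with array weights and 169 to 634 with single arrays left out, and against 7 days 778 and 311 to 675. The causes of these shifts were not tested. Of the 111 named genes called, none reversed direction in any setting, and 50 kept their calls with each of the 6 arrays left out. Of the 50 list medians, 12 lay on the other side of 0 in at least 1 setting, each of them within 0.26 of 0 as reported, and 4 moved there by more than the spread between arrays. These were monocytes (-0.12 to 0.28 with single arrays left out), dendritic cells (-0.026 to 0.19) and pattern recognition (-0.14 to 0.046), each at its lowest without replicate 1 of LR, and fatty acid oxidation, at -0.070 with quantile normalization. At 24 h the deviations of arrays with the same replicate number correlated at -0.55, 0.08 and -0.18, and those with other numbers at -0.36 to 0.58. With 3 arrays a group this check cannot settle whether the numbers pair the arrays. A replicate block gave 684 calls at 24 h (642 shared), and 121, 359 and 478 in the 3 tests between times, and 6 of the 111 named genes lost their calls under it. With only the 6 arrays 20 lost them, with quantile normalization 6, with arrays centred on their medians 5 and with a variance trend 3.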
